A study of Mus musculus with 15 samples.

Results

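The genes described here are 9 genes of glucose use in group 2 innate lymphoid cells (ILC2s) and their bone marrow progenitors (ILC2p): the glucose transporter gene Slc2a1, 7 genes of glycolytic enzymes (Hk1, Hk2, Pfkp, Aldoa, Pgk1, Eno1 and Ldha) and Hif1a, the gene of the oxygen-regulated subunit of hypoxia-inducible factor 1. They were chosen by gene symbol, and all 9 were found among the 24690 gene entries of each library. RNA was sequenced from 15 libraries of C57BL/6 background: 4 WT and 3 Tgfbr2-/- libraries of ILC2s from the gut lamina propria (LP), and 4 WT and 4 Tgfbr2-/- libraries of ILC2p from bone marrow (BM). Each cell type was sequenced in 2 experiments, and both experiments held both genotypes. The study asked what loss of the receptor for transforming growth factor-β does to these cells. No source used here says that the libraries of a group came from separate animals, so p-values measure the spread between these libraries, which may be partly technical.

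All groups carried the same alleles, a floxed Tgfbr2 gene and an ER-Cre transgene, whose recombinase is switched on by tamoxifen. Libraries labelled Tgfbr2-/- came from tamoxifen treatment and libraries labelled WT from sunflower oil alone, given for 5 days, so that deletion of the receptor gene and exposure to tamoxifen cannot be told apart. By the study's protocols treated mice were 8 to 12 weeks old, received 1 mg of tamoxifen per day and were killed 1 day after the last dose. LP ILC2s were sorted as CD45+ lineage-negative cells with CD127, Sca1, CD25 and KLRG1, from the treated mice themselves. BM ILC2p were sorted as lineage-negative cells with CD127, α4β7, CD25 and the CD45 allotype of the Tgfbr2-/- or control marrow. They came from mixed bone marrow chimeras, irradiated hosts that had received that marrow together with marrow of another CD45 allotype, which was also that of the hosts. By the way the study names these chimeras, the marrow donors had been treated before the transfer, and chimeras were analysed 6 weeks after it. The experiments of LP ILC2s and those of ILC2p carry different identifiers in the sample titles and share only the numbers 1 and 2 given here. Cell type is therefore confounded with tissue, gate, chimerism, time since treatment and sequencing experiment, and these cannot be told apart. In sorted bulk RNA, fewer cells of a type and less RNA per cell cannot be told apart either.

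Glucose enters lymphocytes largely through the transporter GLUT1, the product of Slc2a1. The hexokinases (Hk1, Hk2) trap it as glucose 6-phosphate, phosphofructokinase (Pfkp) commits it to glycolysis, aldolase (Aldoa) splits the sugar, phosphoglycerate kinase (Pgk1) and enolase (Eno1) act on the smaller products, and lactate dehydrogenase (Ldha) turns pyruvate into lactate. Hif1a, when oxygen is low, drives transcription of many of these genes through a short DNA motif. ILC2s guard barrier tissues and respond to alarm signals with type 2 cytokines, and their activation is known to raise their use of glucose.

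The 9 genes lie on 7 chromosomes. On the NCBIM37 (mm9) assembly, Hk1 is on chromosome 10 at chr10:61731603-61842656, Slc2a1 and Eno1 are on chromosome 4 at chr4:118781316-118809935 and chr4:149610830-149622988, and Aldoa and Ldha on chromosome 7 at chr7:133938748-133944265 and chr7:54096845-54110997. Hk2 is at chr6:82675019-82724448, Hif1a at chr12:75002362-75048517, Pfkp at chr13:6579014-6648023 and Pgk1 at chrX:103382439-103399038. All are annotated as protein-coding genes.

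The core motif of hypoxia-inducible factors was searched as the letters ACGTG, or GCGTG in its other common form, on both strands, so that a match can also read as the reverse complement. Matches of the first form on opposite strands can overlap. The 250 bases before the RefSeq transcript starts, from RefSeq and placed on NCBIM37, were available as 15 windows for the 9 genes. The motif was found on either strand in 13 of the 15 windows, against 38.6% of all 32851 mouse windows of that length. Some windows of the same gene overlap, so that the same match is counted more than once. Each of the 9 genes had at least 1 window with the motif, a count per gene to which the share per window does not apply. A match is a description of the letters and not a bound site. The promoters of 4 genes are shown 5′ to 3′ on the gene's strand with the motif in capitals: Slc2a1 and Hk2, whose RNA levels differed most of the 9 between WT LP ILC2s and WT ILC2p, Ldha, among the most abundant of the 9, and Pgk1. The Slc2a1 stretch is chr4:118781100-118781315 (+), that of Hk2 chr6:82724449-82724698 (−), that of Ldha chr7:54100924-54101173 (+) and that of Pgk1 chrX:103382189-103382438 (+). A further match of the Slc2a1 window crosses the annotated start of the gene and is not printed in full, since the printed stretch ends inside it. The Ldha stretch lies inside the annotated gene, before a transcript start 4329 bases past the annotated one. Another Ldha window, with 1 match, is not shown.
Slc2a1: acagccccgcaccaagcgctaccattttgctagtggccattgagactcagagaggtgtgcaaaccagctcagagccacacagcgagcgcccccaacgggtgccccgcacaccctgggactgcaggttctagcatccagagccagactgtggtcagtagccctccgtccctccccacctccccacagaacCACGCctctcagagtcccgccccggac
Hk2: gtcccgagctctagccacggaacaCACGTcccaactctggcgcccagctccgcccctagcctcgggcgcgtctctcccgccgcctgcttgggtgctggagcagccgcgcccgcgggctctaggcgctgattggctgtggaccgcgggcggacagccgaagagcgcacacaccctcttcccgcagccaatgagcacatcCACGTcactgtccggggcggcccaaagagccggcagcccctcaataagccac
Ldha: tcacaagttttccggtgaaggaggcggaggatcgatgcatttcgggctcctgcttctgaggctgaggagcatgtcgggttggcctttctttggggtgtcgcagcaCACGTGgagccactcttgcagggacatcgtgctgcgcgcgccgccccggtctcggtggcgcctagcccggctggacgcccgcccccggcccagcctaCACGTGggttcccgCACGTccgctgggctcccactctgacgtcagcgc
Pgk1: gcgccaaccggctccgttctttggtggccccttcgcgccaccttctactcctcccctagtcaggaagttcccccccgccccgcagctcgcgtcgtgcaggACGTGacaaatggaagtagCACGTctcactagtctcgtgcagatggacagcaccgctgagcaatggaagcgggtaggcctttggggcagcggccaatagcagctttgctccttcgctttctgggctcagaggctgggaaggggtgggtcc

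The libraries were sequenced to similar depth in both cell types, with 12167066 to 32114265 reads on genes in LP ILC2s and 10957021 to 35961215 in ILC2p. They differed in how evenly genes were covered. For each library, genes were taken whose median over the other libraries of the cell type was at least 50 CPM (counts scaled to library size). Of these genes, at most 0.027% fell under 1 CPM in any LP ILC2 library, against 1.36% to 14.7% in the ILC2p libraries. The ILC2p libraries thus held many more gaps of this kind, in 1 or several libraries per gene, also in genes named below. RPKM values (reads scaled to counted transcript length and to library depth) are given here as levels, and fold changes are from raw counts. Tgfbr2 itself was measured first. Its RPKM was 36.1, 57.9, 36.5 and 51.4 in WT and 49.1, 40.5 and 23.9 in Tgfbr2-/- LP ILC2s, and 0.146, 59.1, 25.3 and 49.0 in WT and 16.9, 26.3, 6.82 and 38.7 in Tgfbr2-/- ILC2p. The genotypes overlapped in both cell types. Counts over the whole transcript do not show whether the floxed part was lost, so the labels were taken as given and were not checked by this gene.

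The most abundant of the 9 RNAs were those of aldolase and lactate dehydrogenase, in every one of the 15 libraries. Aldoa stood at 863, 813, 974 and 891 RPKM in WT LP ILC2s, at 695, 690 and 851 in Tgfbr2-/- LP ILC2s, at 820, 887, 828 and 626 in WT ILC2p and at 1121, 790, 698 and 688 in Tgfbr2-/- ILC2p (values in the order of experiment and replicate, here and below). Ldha stood at 700, 857, 707 and 847 RPKM in WT and 777, 1042 and 899 in Tgfbr2-/- LP ILC2s, and at 594, 777, 648 and 831 in WT and 629, 654, 857 and 639 in Tgfbr2-/- ILC2p. They were also the steadiest of the 9, with a coefficient of variation over the 15 libraries of 15.7% for Aldoa and 16.4% for Ldha, and for both genes the RPKM ranges of all 4 groups overlapped.

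Within the 7 LP ILC2 libraries the levels ran, by median, from Aldoa (851 RPKM) and Ldha (847) through Eno1 (95.5), Hk1 (55.1), Slc2a1 (53.4), Hif1a (38.9), Pfkp (35.2) and Pgk1 (22.8) to Hk2 (13.9). In that order the steps from Ldha to Eno1 and from Eno1 to Hk1 had no overlap between the ranges over libraries, and all other neighbours overlapped.

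Of the rest, Hk1, the widely expressed hexokinase, ranged from 31.8 to 73.3 RPKM in LP ILC2s and from 5.04 to 69.3 in ILC2p. Hk2, the hexokinase that many activated cells induce, ranged from 10.5 to 25.4 RPKM in LP ILC2s and, with 1 exception described below, from 0.833 to 4.44 in ILC2p. Pfkp lay between 21.1 and 46.5 RPKM in LP ILC2s and between 0.185 and 45.7 in ILC2p, where 2 Tgfbr2-/- libraries held 10 and 7 reads. Hif1a lay between 34.0 and 55.1 RPKM in LP ILC2s and between 12.6 and 70.7 in ILC2p. These genes were even among LP ILC2 libraries and uneven among ILC2p libraries, most of all Slc2a1, with a coefficient of variation of 23.1% in LP ILC2s and 160.5% in ILC2p.

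**Figure D1:**
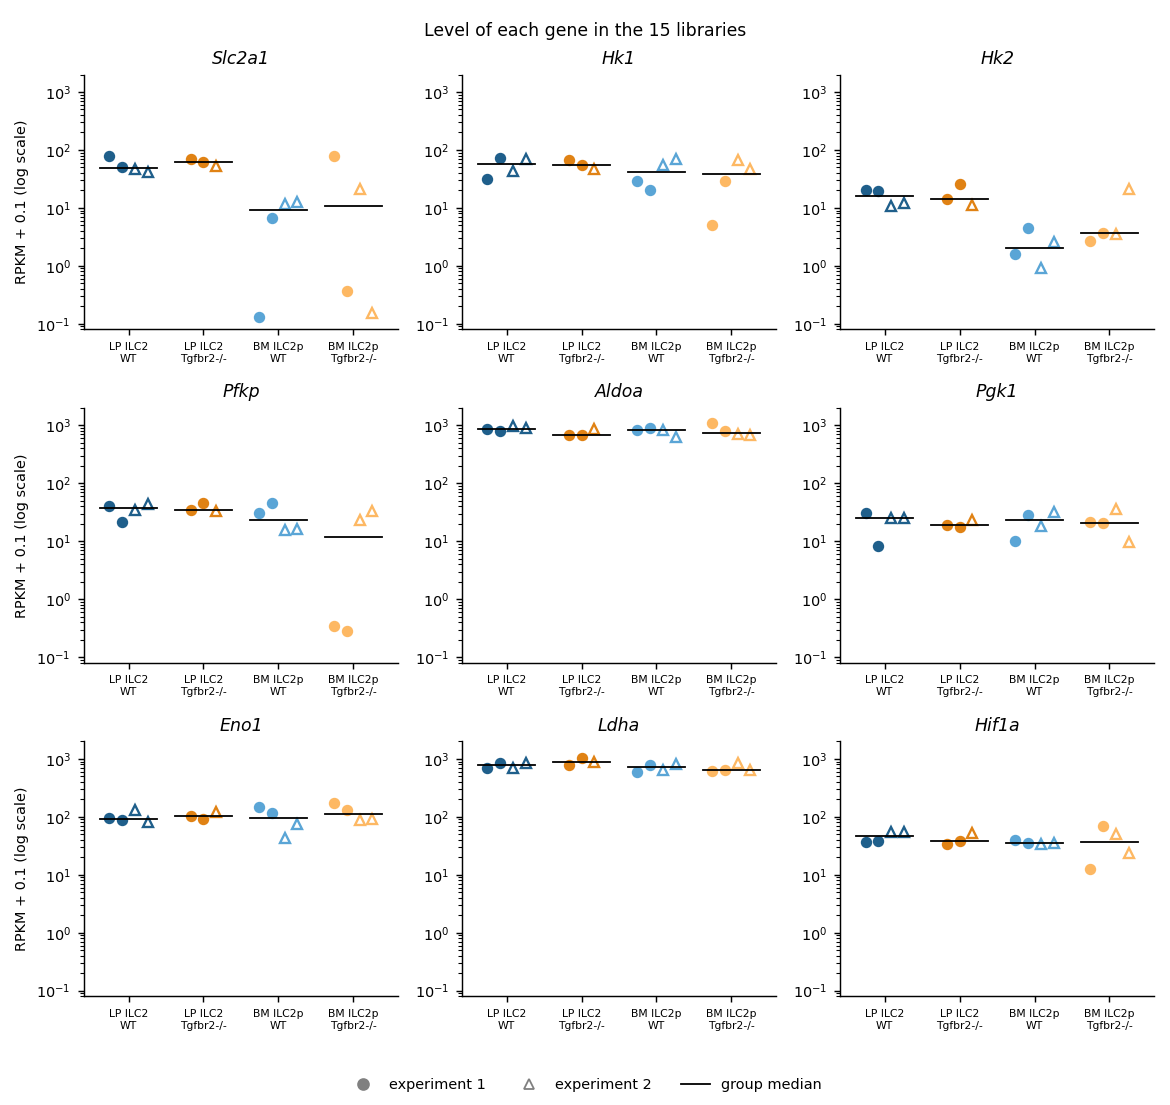
Levels of the 9 genes in each of the 15 libraries, in RPKM on a log scale, with 1 point per library, the groups along the horizontal axis and circles and triangles for experiments 1 and 2. Aldoa and Ldha lie in a narrow band in all groups, while Slc2a1 and Pfkp drop below 1 RPKM in single ILC2p libraries.

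Shared sequence limits the levels of 4 genes. Of all 32-base pieces of the transcript, 94.0% occur at least 2 times in the genome for Pgk1, 77.0% for Eno1, 48.4% for Ldha and 37.8% for Aldoa, against 0.801% or less for the other 5 genes. Reads of processed copies and of the gene itself cannot be told apart there. For Eno1 the deposited entry counts only 127 bases and 124 to 366 reads per library, while the entry named Eno1b, a processed copy, covers 1762 bases and holds 4282 to 26416 reads. The levels of Pgk1 and Eno1 are therefore uncertain, and their place in the order above is that of their entries only.

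Whether loss of Tgfbr2 alters these genes in mature LP ILC2s was asked first. None of the 9 genes passed the test (an adjusted p under 0.1 and a fold over 1.5, edgeR's quasi-likelihood test over 11981 genes), where 0% of all genes did. At an unadjusted p under 0.05, 557 genes or 4.65% stood out, and none of the 9 did. The log2 fold change of Aldoa was −0.31 (SE 0.15, adjusted p = 0.898). Within each experiment the Tgfbr2-/- libraries all lay below the WT libraries for Aldoa, a separation that 5.27% of genes showed in that direction, with an exact permutation p of 0.111 (two-sided). With 18 arrangements of the labels the smallest p possible is 0.0556. Ldha had a log2 fold change of 0.15 (SE 0.16, adjusted p = 0.92), and the other 7 genes ran from −0.23 to 0.06, so that the 9 genes had a median of −0.07 beside −0.01 for all genes. Precision was best for Aldoa, Ldha and Hif1a, with SE of 0.15 to 0.16, and worst for Eno1, with 0.62.

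In BM ILC2p the coefficient of variation over libraries was higher than in LP ILC2s for most of these genes, while that of Ldha was 14.5% against 14.3%. Again none of the 9 passed the test, while 3.47% of the 9242 genes tested did (2.61% higher and 0.866% lower in Tgfbr2-/- ILC2p). Aldoa had the smallest p of the 9 (unadjusted p = 0.211). No gene of the 9 was lower in Tgfbr2-/- without overlap in both experiments, where 4.85% of all genes were.

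The glycolytic genes gave no common direction in ILC2p. Slc2a1 was at 0.0334, 6.65, 11.6 and 12.4 RPKM in WT and at 79.0, 0.270, 21.5 and 0.0505 in Tgfbr2-/- ILC2p, the lowest values being 1, 7 and 4 reads, and its log2 fold change of 1.96 had an SE of 2.53 (adjusted p = 0.92). Without the Tgfbr2-/- library of 79.0 RPKM it turned to −1.06. Hk2 was at 1.48, 4.44, 0.833 and 2.45 RPKM in WT and at 2.62, 3.62, 3.44 and 21.4 in Tgfbr2-/- ILC2p, with 1 library far above the other 7 and a log2 fold change of 1.83 (SE 1.49, adjusted p = 0.881), which was 0.73 without that library. Pfkp was at 31.1, 45.7, 15.3 and 16.2 RPKM in WT and at 0.240, 0.185, 23.6 and 32.8 in Tgfbr2-/- ILC2p. For Pfkp the 2 experiments went opposite ways without overlap, with Tgfbr2-/- lower in experiment 1 and higher in experiment 2, and the pooled log2 fold change of −3.004 (SE 2.77, adjusted p = 0.899) describes neither.

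Aldoa (log2 fold change 0.28, SE 0.20, adjusted p = 0.85) and Ldha (0.22, SE 0.18, adjusted p = 0.881) were measured precisely also in ILC2p. On the CPM scale Ldha was higher in every Tgfbr2-/- library than in the WT libraries of its experiment, as 6.15% of genes were, with the smallest exact permutation p that 36 arrangements of the labels allow (0.0556), but on the deposited RPKM scale the groups overlapped (594 to 831 in WT and 629 to 857 in Tgfbr2-/-) and the direction flipped, so that no direction is given. Over the 9 genes 7 log2 fold changes were positive and 2 negative, with a median of 0.28 beside −0.10 for all genes tested, though those of Slc2a1, Hk1, Pfkp, Pgk1, Ldha and Hif1a changed sign under at least 1 alternative or without 1 library.

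**Figure D2:**
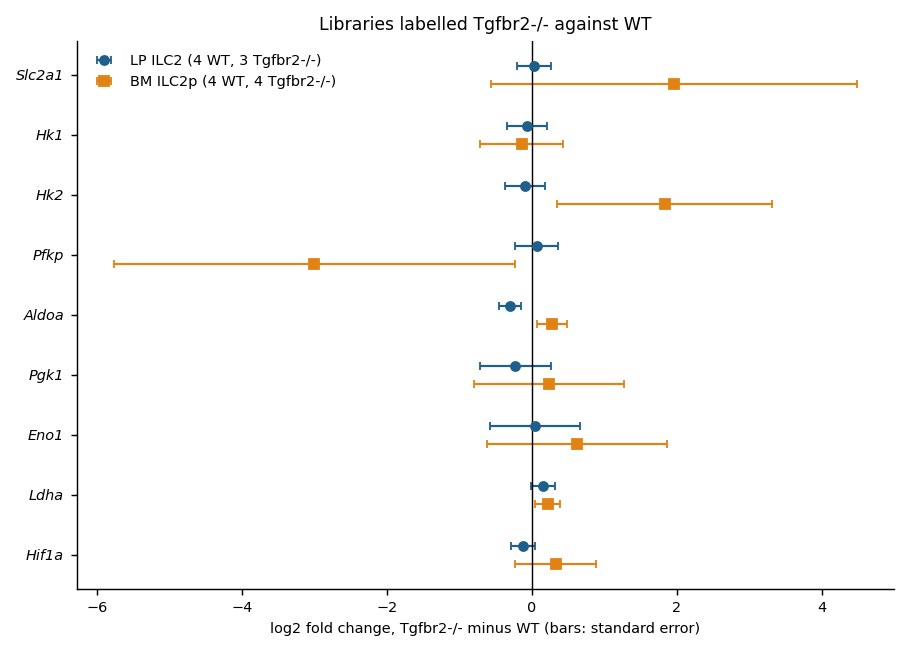
Log2 fold change of Tgfbr2-/- against WT for each of the 9 genes in LP ILC2s and in BM ILC2p, with bars of 1 SE from the quasi-likelihood fit and 0 marked as no change. The LP ILC2 values run from −0.31 to 0.15, with bars of up to 0.62 (Eno1), and the ILC2p values of Slc2a1, Hk2 and Pfkp have bars of 1.49 to 2.77.

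Other cell types' markers moved with genotype in ILC2p. All 10 listed genes of neutrophils and their precursors were measured, and their summed level was 922 to 1670 CPM in WT ILC2p and 76296 to 91172 CPM in Tgfbr2-/- ILC2p, without overlap. S100a8, the gene of a calcium-binding protein of granulocytes and the most abundant of them over all libraries, stood at 58.9 to 167 CPM in WT and at 23741 to 29536 CPM in Tgfbr2-/- ILC2p. Macrophage and monocyte markers, with Lyz2 the most abundant, summed to 54.9 to 122 CPM in WT and 12132 to 13717 CPM in Tgfbr2-/- ILC2p, and basophil and mast cell markers to 111 to 297 and 1208 to 1581 CPM. The 12 ILC2 markers summed to 8197 to 12375 CPM in WT and 4185 to 5858 CPM in Tgfbr2-/- ILC2p, with Gata3 the most abundant. In LP ILC2s the neutrophil list reached at most 3.88 CPM in any library, with S100a9, Elane, Mpo, Camp and Itgam at 0 in all WT libraries. The sort had gated on lineage-negative cells, and the part of these markers in the Tgfbr2-/- ILC2p values was not tested.

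**Figure D3:**
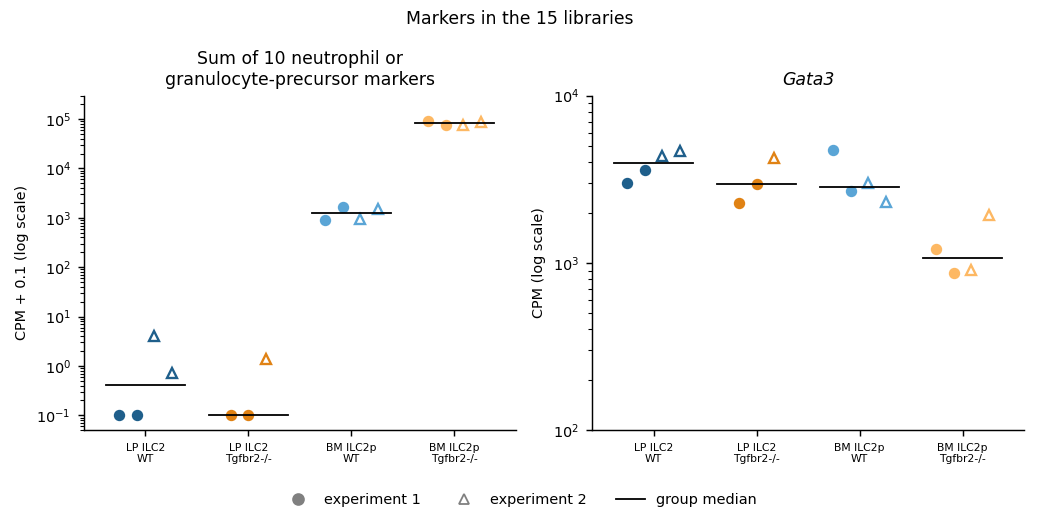
Markers in each library by group: the summed neutrophil and granulocyte precursor list (CPM + 0.1, log scale) and Gata3 (CPM, log scale), with circles and triangles for experiments 1 and 2. The Tgfbr2-/- ILC2p libraries hold 76296 to 91172 CPM of the neutrophil list, above all other libraries.

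Mature LP ILC2s were then set against their marrow progenitors. Among WT libraries Slc2a1 and Hk2 were the genes of the 9 whose groups did not overlap. Slc2a1 was at 78.9, 49.8, 46.6 and 41.6 RPKM in LP ILC2s and at most 12.4 in ILC2p. Hk2 was at 20.002, 19.6, 10.5 and 12.1 RPKM in LP ILC2s and at most 4.44 in ILC2p. For both, every LP ILC2 library was above every ILC2p library, as 7.05% of all genes were, with the smallest exact permutation p that 4 against 4 libraries allow (0.0286, two-sided, 9 genes tested). Neither passed the test across all genes. The log2 difference (LP ILC2 minus ILC2p) of Hk2 was 2.87 (SE 0.86, unadjusted p = 0.00422, adjusted p = 0.129) and that of Slc2a1 2.96 (SE 1.51, adjusted p = 0.472), in a comparison that called 2.36% of 12806 genes (1.65% higher and 0.711% lower in LP ILC2s). The call of Hk2 turned on the settings, with adjusted p from 0.00361 to 0.768 over the alternatives. Summed marker lists of other cells also separated the WT cell types without overlap. In WT ILC2p the neutrophil list summed to 922 to 1670 CPM, against at most 3.88 in LP ILC2s, the basophil and mast cell list to 111 to 297 against at most 5.51, and the erythroid list to 14.9 to 45.5 against at most 1.18. In LP ILC2s the T cell list summed to 98.1 to 209 CPM, against at most 70.3 in ILC2p, the B cell list to 60.8 to 87.9 against at most 41.9, and the stromal and endothelial list to 102 to 367 against at most 96.5. Single genes made up much of some sums. In WT LP ILC2s Pecam1 gave 101 to 207 CPM of the stromal and endothelial list. Cd79b gave 30.4 to 77.2 CPM of the B cell list there, with Pax5 at 0 in all 4 libraries. In WT ILC2p Klf1 gave 0.089 to 44.2 CPM of the erythroid list, with Hbb-b1 and Hba-a2 at 0. Whether these markers came from other cells or from the sorted cells, and their part in the differences, was not tested.

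The other 7 genes overlapped between the WT cell types. Aldoa, Ldha, Pgk1, Eno1, Hk1, Pfkp and Hif1a had log2 differences from 0.04 to 0.41. The estimate was close for Aldoa (0.12) and Ldha (0.15), with SE of 0.19 and 0.17, and wide for Pfkp and Eno1, with SE of 1.07 and 0.91. None of the 9 genes was lower in LP ILC2s without overlap, where 3.76% of all genes were. All 9 differences were positive, with a median of 0.33 beside −0.02 over all genes, though those of Aldoa, Eno1, Hk1, Pfkp and Pgk1 changed sign under at least 1 alternative or without 1 library.

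Among Tgfbr2-/- libraries 11.7% of genes were called between LP ILC2s and ILC2p, and none of the 9 was. Slc2a1 (log2 difference 1.04, SE 1.51) and Hk2 (0.80, SE 0.86) overlapped between the cell types, since single Tgfbr2-/- ILC2p libraries reached 79.0 RPKM of Slc2a1 and 21.4 RPKM of Hk2. Without the library of 79.0 RPKM the log2 difference of Slc2a1 was 2.98 (adjusted p = 0.298), and without that of 21.4 RPKM the log2 difference of Hk2 was 2.21 (adjusted p = 0.109). Aldoa was lower in all 3 LP ILC2 libraries than in all 4 ILC2p libraries on the CPM scale, as 7.18% of genes were, and overlapped on the RPKM scale (log2 difference −0.47, SE 0.21, adjusted p = 0.198, exact permutation p = 0.0571). Eno1 had a log2 difference of −0.45 (SE 1.00, adjusted p = 0.878) by its own entry. With the reads of Eno1b added it was −1.26 (adjusted p = 0.0225), past the threshold. Pfkp (1.17, SE 1.15, adjusted p = 0.664) passed it with the first experiment of each cell type alone (7.35, adjusted p = 0.0219), where both ILC2p libraries held 10 reads or fewer.

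**Figure D4:**
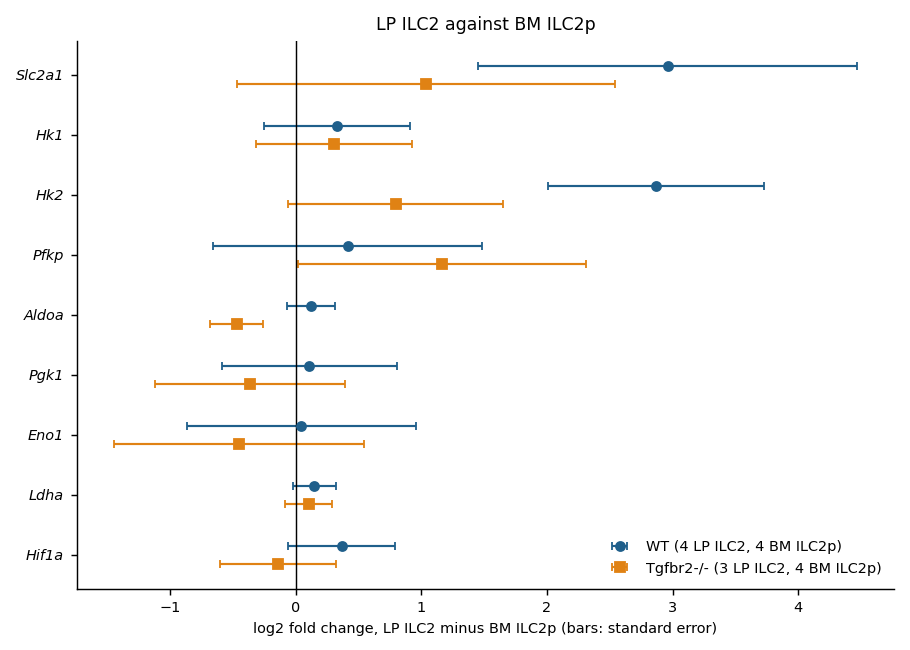
Log2 difference of LP ILC2 minus BM ILC2p for each of the 9 genes, among WT and among Tgfbr2-/- libraries, with bars of 1 SE from the quasi-likelihood fit and 0 marked. Among WT libraries Slc2a1 (2.96) and Hk2 (2.87) lie farthest from 0.

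Whether the genotype difference itself differed between LP ILC2s and ILC2p was tested in a fit over all 15 libraries, which called 0.992% of 12806 genes (0.469% higher and 0.523% lower) and none of the 9. The difference of effects (LP ILC2 minus ILC2p) was −0.59 for Aldoa (SE 0.26, unadjusted p = 0.0375, adjusted p = 0.361), where the median of all genes was 0.31. The log2 fold changes of Aldoa in LP ILC2s (−0.31) and ILC2p (0.28) were thus not shown to differ after adjustment.

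The 2 experiments of each cell type were also compared, and none of the 9 genes passed the test. In LP ILC2s, Hk2 was at 20.002, 19.6, 13.9 and 25.4 RPKM in the 4 libraries of experiment 1 and at 10.5, 12.1 and 11.1 in the 3 of experiment 2. It was lower in experiment 2 without overlap, as 8.0% of all genes were (8.61% were higher), with a log2 difference of −1.01 (SE 0.28, unadjusted p = 0.00663, adjusted p = 0.167). Slc2a1 had a log2 difference of −0.64 (SE 0.24, adjusted p = 0.303) and Hif1a one of 0.36 (SE 0.16, adjusted p = 0.387). Hif1a was at 36.2, 37.6, 34.0 and 38.9 RPKM in experiment 1 and at 55.0, 55.1 and 51.8 in experiment 2, higher without overlap. Slc2a1 was at 78.9, 49.8, 68.6 and 62.2 RPKM in experiment 1 and at 46.6, 41.6 and 53.4 in experiment 2, with overlap on this scale and without it on the CPM scale. The test called 0.977% of 11981 genes (0.693% lower in experiment 2). Epithelial markers summed to 6.77 to 43.8 CPM in experiment 1 and to 240 to 1442 CPM in experiment 2, and their part in the differences was not tested. In ILC2p no gene was called between experiments (0%, with 288 genes at an unadjusted p under 0.05), and of the 9 only Hk1 had an unadjusted p under 0.05, with a log2 difference of 1.52 (SE 0.58, adjusted p = 0.999).

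Other genes of the same pathways were counted as lists. In LP ILC2s none of the 90 genes tested on the 6 lists was called between genotypes. In ILC2p, 6 of the 70 genes tested rose in Tgfbr2-/- and 2 fell, where 2.61% and 0.866% of all genes did. Among those that fell, Hif1an held 1 to 4 reads in each Tgfbr2-/- library and passed the filter only through the WT libraries. Neither Hif1an nor Hk3, among those that rose, could be tested with at least 10 counts in every library. Of 13 other glycolytic enzymes and transporters 2 rose: Hk3, a hexokinase abundant in myeloid cells, and Pkm, the pyruvate kinase that forms pyruvate. Pkm was at 211, 281, 326 and 376 RPKM in WT and at 940, 541, 735 and 684 in Tgfbr2-/- ILC2p, without overlap (log2 fold change 1.55, SE 0.24, adjusted p = 0.01). Hk3 was at 0.223, 1.202, 10.1 and 15.7 RPKM in WT and 115, 185, 189 and 68.4 in Tgfbr2-/- (5.77, SE 1.21, adjusted p = 0.0467). The list's median was 1.32 beside −0.10 for all genes.

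Of the 8 genes of the pentose phosphate pathway, which branches from glycolysis and yields NADPH, 3 rose in Tgfbr2-/- ILC2p. The transaldolase gene Taldo1 was at 202, 273, 208 and 188 RPKM in WT and at 848, 705, 818 and 524 in Tgfbr2-/- (log2 fold change 1.96, SE 0.24, adjusted p = 0.00235). G6pdx, the gene of the first enzyme of the pathway, rose by 2.07 (SE 0.39, adjusted p = 0.0278) and the transketolase gene Tkt by 1.38 (SE 0.31, adjusted p = 0.0575). Of 11 genes of pyruvate and lactate handling 1 rose, the lactate exporter gene Slc16a3 (3.94, SE 0.91, adjusted p = 0.0716).

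On the arginine and polyamine list, of which 20 genes were tested in ILC2p, Slc3a2, the common heavy chain of amino acid transporters, fell: it was at 342, 385, 381 and 410 RPKM in WT and at 100, 89.5, 208 and 186 in Tgfbr2-/- ILC2p (log2 fold change −1.23, SE 0.27, adjusted p = 0.057). Hif1an, the asparaginyl hydroxylase that inhibits hypoxia-inducible factor, also fell, from 397, 953, 1237 and 148 reads in WT to 4, 1, 4 and 2 reads (adjusted p = 0.0832). None of 13 tested genes induced by hypoxia outside glycolysis was called. The neutrophil markers given above moved with all these changes, and their part was not tested. Leaving out 1 of the 8 libraries in turn, the call of Hif1an was lost in all 8 fits, with adjusted p from 0.111 to 0.312. That of Slc3a2 was lost in 7 fits, those of Slc16a3 and Tkt in 6 each and those of Hk3 and G6pdx in 3 each. The calls of Pkm and Taldo1 held in all 8. Both were lost within experiment 1 alone (adjusted p = 0.345 and 0.287) and within experiment 2 alone (0.209 and 0.157).

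**Figure D5:**
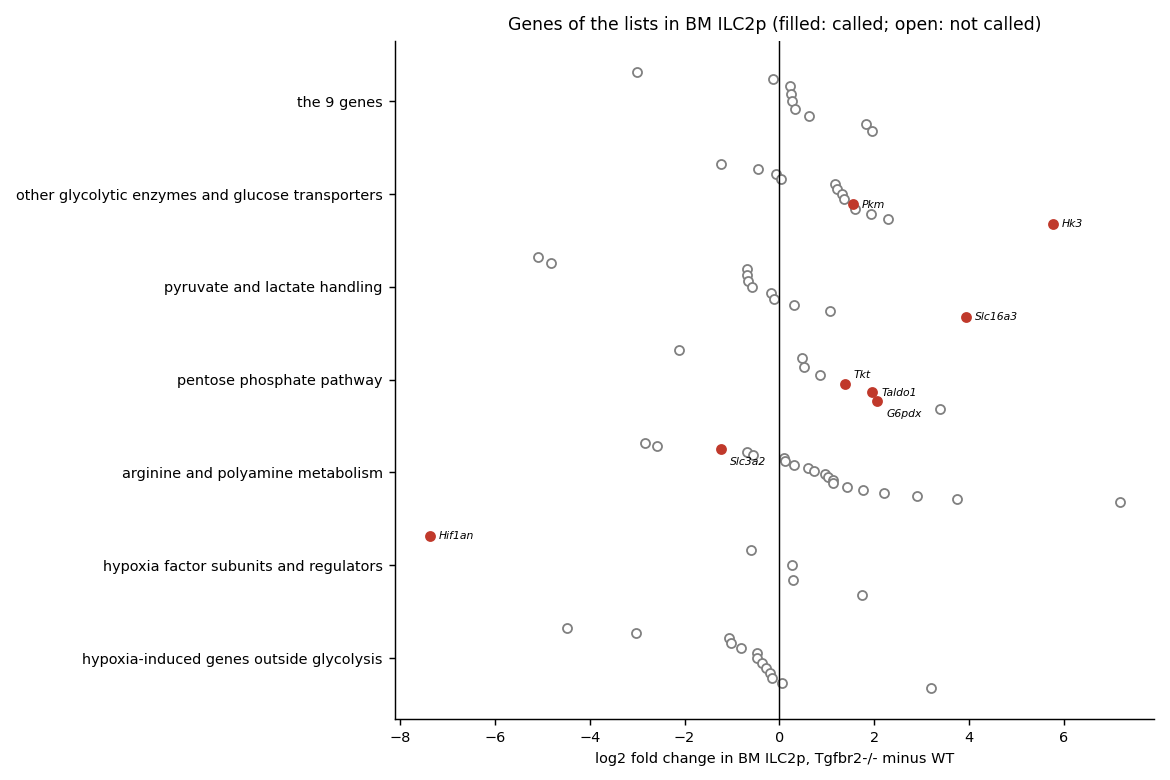
Log2 fold change of Tgfbr2-/- against WT in BM ILC2p for each tested gene among the 9 genes and the 6 lists, 1 row per list and with the called genes named. The 9 genes have no called gene, and Taldo1 (1.96) and Pkm (1.55) are among the 8 called on the lists.

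Between the WT cell types, LP ILC2s were higher in Slc2a6, Taldo1, Epas1, Egln3 and Rora and lower in Hk3, of 94 list genes tested, where 1.65% of all genes were higher and 0.711% lower. Hk3 held 14, 7, 16 and 0 reads in LP ILC2s and 7, 55, 992 and 1523 in ILC2p, and the groups overlapped. Slc2a6 held 2, 3, 12 and 15 reads in ILC2p. Hk3, Slc2a6, Epas1 and Egln3 passed the filter through the groups where they were high. None of these could be tested with at least 10 counts in every library. Leaving out 1 of the 15 libraries in turn, the calls of Slc2a6 (11 fits), Epas1 (10), Hk3 (5) and Taldo1 (1) were lost, with adjusted p up to 0.184, while those of Egln3 and Rora held. Both were lost with the first experiment of each cell type alone (adjusted p = 0.308 for each) and with the second alone (0.519 and 0.689). Epas1, the gene of a second hypoxia-factor subunit (HIF-2α), was at 114, 132, 140 and 185 RPKM in LP ILC2s and held 1, 1, 871 and 605 reads in ILC2p, or at most 5.15 RPKM (adjusted p = 0.0659). Egln3, a prolyl hydroxylase that marks hypoxia-factor subunits for breakdown, was at 42.4, 35.5, 15.5 and 27.4 RPKM in LP ILC2s and held 1, 0, 4 and 5 reads in ILC2p (adjusted p = 0.0118). Rora, a transcription factor needed for ILC2s and also induced by hypoxia, was at 166, 152, 155 and 177 RPKM against 37.2, 47.8, 56.7 and 43.3 (log2 difference 1.86, adjusted p = 0.0215). Hif1a itself overlapped between the cell types (36.2 to 55.1 against 33.3 to 40.3 RPKM). Among Tgfbr2-/- libraries LP ILC2s were again higher in Epas1 (adjusted p = 0.00748) and Rora (log2 difference 2.91, adjusted p = 0.000429). Egln3 and Slc2a6 were not called there (log2 differences 2.60 and −2.12, adjusted p = 0.288 and 0.359), and single Tgfbr2-/- ILC2p libraries held up to 7.88 RPKM of Egln3. LP ILC2s were lower there in 4 of the 8 pentose phosphate genes, G6pdx, Pgd, Tkt and Taldo1. Of these, Pgd (adjusted p = 0.0997) lost its call in 13 of 15 fits without 1 library and the other 3 in none. Of 21 other glycolytic enzymes and transporters 4 were lower and 1 higher, with a median log2 difference of −1.32 beside −0.04 for all genes. Over the 6 lists 11 of 94 genes were higher and 11 lower in that comparison, beside 8.21% and 3.44% of all genes (205 genes higher and 207 lower with at least 10 counts in every library), and the neutrophil list summed to at most 1.31 CPM in these LP ILC2 libraries. Taldo1 was thus higher in LP ILC2s among WT libraries (1.03, adjusted p = 0.0271) and lower among Tgfbr2-/- libraries (−1.02, adjusted p = 0.0205). Each of these calls was lost under 2 alternatives, with adjusted p up to 0.679 among WT and 0.424 among Tgfbr2-/- libraries. Between experiments in LP ILC2s 1 list gene was called, Odc1, the ornithine decarboxylase that starts polyamine synthesis (log2 difference −1.38, SE 0.25, adjusted p = 0.0806), beside 0.977% of all genes. That call was lost in all 7 fits without 1 library, with adjusted p from 0.126 to 0.346.

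The genes whose profile over the 15 libraries was most like the mean profile of Slc2a1 and the 7 glycolytic enzymes were Dgat2 (Pearson r = 0.889), Arpc3 (0.871) and Qpctl (0.847), of 8890 genes compared. Over the 7 LP ILC2 libraries alone they were Nelfa (0.98), Nfatc1 (0.967) and Ndufa3 (0.964), of 8848 genes. No gene was among the first 3 over both sets of libraries. These are descriptions of profiles that share libraries and depth, chosen as the highest of all genes compared.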

How the data were processed

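RNA from 7 LP ILC2 and 8 BM ILC2p libraries was sequenced by the authors. Per the study's methods, reads were mapped to mm9 with TopHat, keeping up to 15 hits, and the submitters' processing notes name Bowtie2. The authors deposited, for each of 24690 RefSeq entries, raw counts of reads, not normalized, and RPKM over the counted exon bases of each entry. Whether the libraries were stranded is not given in the sources used here. Entries that join several genes number 205.

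Groups, experiments and replicates follow the labels. Counts were tested with edgeR 4.0.16 in R 4.3.3 (TMM scaling, filterByExpr, quasi-likelihood test, Benjamini-Hochberg adjustment over all genes tested). Genes were called at an adjusted p under 0.1 and a fold over 1.5, the study's thresholds. Genotype was fitted in each cell type with experiment as covariate, cell types were compared over 4 group means, and the SE is the log2 fold change divided by the square root of F. All 9 genes passed the filter in every comparison. The study's methods used 2 replicates per condition without naming them, and all libraries were used here. Single genes were also tested by exact permutation (Python 3.11.15, scipy 1.17.1), of genotype within experiments or of cell type. CPM were scaled by TMM. DESeq2 1.42.0 and limma 3.58.1 on log2(RPKM + 1) and log2(RPKM + 0.1) were alternatives. The fitting code was tested on simulated data.

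Named were all 9 genes, at most the 4 most changed called genes of each other list per comparison and direction, and the 3 genes most like the mean glycolytic profile among those of at least 10 mean CPM. The genes, lists and tests were chosen with earlier results of these data known. Some genes chosen in the same way are not reported here. Positions are from GENCODE M1 on NCBIM37. Promoter windows are RefSeq's, placed on NCBIM37 by exact match.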

Additional observations from a re-analysis of the deposited data

Results flagged for a closer look

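Among the 27 groups of 4 libraries checked for a single value far from the rest (9 genes and the 3 groups that hold 4), 2 stood out, about as many as chance gives at 1 in 20. Hk2 in Tgfbr2-/- BM ILC2p was highest in replicate 2 of experiment 2, at 21.39 RPKM, and the gap to the next library took 0.947 of the group's range. Ldha in Tgfbr2-/- BM ILC2p was highest in replicate 1 of experiment 2, at 857.5 RPKM, with a gap of 0.889 of the range.

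For 3 of the 94 genes tested on the other lists, beside 0.992% of all 12806 genes, the genotype difference differed between the cell types by the test of that difference (LP ILC2 effect minus ILC2p effect). It was −1.797 for Pkm (adjusted p = 0.0144), −2.081 for Taldo1 (adjusted p = 0.0052) and 7.442 for Hif1an (adjusted p = 0.0666). The Hif1an value rests on 1 to 4 reads in each Tgfbr2-/- ILC2p library and its size is not a fold that can be read. Leaving out 1 of the 15 libraries in turn, its call was lost in 8 fits (adjusted p up to 0.437), that of Pkm in 1 (0.161) and that of Taldo1 in none. The neutrophil markers moved in the same libraries, and their part was not tested.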

How the results depend on the processing

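Of 719 alternatives for the 9 genes 638 kept direction and call, 75 changed sign and 6 changed the call. Of 675 that left out 1 library, 54 changed sign and 2 the call. The counts of called genes moved more. With DESeq2 they were 338 (0 by edgeR) for genotype in LP ILC2s, 1229 (321) in ILC2p, 950 (302) and 2529 (1492) between cell types among WT and Tgfbr2-/- libraries, 1347 (117) and 397 (0) between experiments in LP ILC2s and ILC2p, and 1477 (127) for the difference of genotype effects. Higher and lower calls were 676 and 553 (241 and 80 by edgeR) for genotype in ILC2p, 1435 and 1094 (1051 and 441) between cell types among Tgfbr2-/- libraries, 797 and 550 (34 and 83) between experiments in LP ILC2s, and 871 and 606 (60 and 67) for the difference. Without a filter they were 3, 988, 320, 5 and 259 for genotype in LP ILC2s, cell type among Tgfbr2-/- libraries, both experiment comparisons and the difference of effects. With at least 10 counts in every library they were 199, 98 and 412 for genotype in ILC2p and the cell types among WT and Tgfbr2-/- libraries, the last with 205 higher and 207 lower in LP ILC2s, against 1051 and 441. In experiment 1 alone these were 38, 44 and 391 and in experiment 2 alone 77, 34 and 114, the cell type values being chosen after seeing the data and setting together experiments that share only a number. Scaling by library size gave 23 between experiments in LP ILC2s (13 higher and 10 lower, against 34 and 83) and 196 for the difference of effects (131 and 65, against 60 and 67), where its median over all genes was 0.60, against 0.31. limma gave 385 and 326 for that difference, with pseudocounts of 1 and 0.1. Leaving out 1 library at a time, the counts ran from 0 to 0 for genotype in LP ILC2s, 179 to 319 in ILC2p, 156 to 370 and 596 to 1904 between cell types among WT and Tgfbr2-/- libraries, 0 to 10 and 0 to 0 between experiments in LP ILC2s and ILC2p, and 14 to 407 for the difference of effects. Replicate numbers did not pair the libraries (correlations of deviations from −0.045 to −0.007), and with the replicate block 175 genes were called for genotype in ILC2p and 130 between WT cell types. The cause of these differences was not tested.

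Among genes whose fold changes are given singly, reversed values for genotype in ILC2p were, for Slc2a1, −0.118 by limma with a pseudocount of 0.1, −1.501 with the replicate block, −0.019 in experiment 2 alone and −1.056 without replicate 1 of experiment 1 of the Tgfbr2-/- libraries (1.964 with all libraries, −1.056 to 2.962 leaving out 1). For Ldha they were −0.002 with library size alone and −0.034 by limma with either pseudocount, and for Pfkp 1.116 in experiment 2 alone. Signs there also changed for Hk1 (−0.144, from −0.605 to 0.210 leaving out 1 library, 0.118 in experiment 2 alone), Pgk1 (0.235, from −0.118 to 0.517, −0.038 by limma) and Hif1a (0.327, from −0.267 to 0.651, −0.156 by limma). Between cell types among Tgfbr2-/- libraries, experiment 2 alone gave −0.577 for Hk2, −0.068 for Pfkp and 0.124 for Eno1. Hk2 passed the threshold between WT cell types with DESeq2 (adjusted p = 0.00361), with at least 10 counts in every library (0.0691), among WT libraries alone (0.0784) and without 1 Tgfbr2-/- ILC2p library, replicate 2 of experiment 2 (0.0549) or replicate 1 of experiment 1 (0.0967), and between experiments in LP ILC2s with DESeq2 (0.0296). Aldoa and Ldha rest on at least 10128 reads in every library, while Slc2a1 and Pfkp rest on 10 reads or fewer in single ILC2p libraries.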
